A study of Mus musculus with 24 samples.

Results

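Follistatin-like 1 (Fstl1) and periostin (Postn) belong to the secreted proteins that sit in or near the extracellular matrix, and they were followed here with 8 other such genes. The 10 genes were Fstl1, Dpt, Postn, Nov, Ctgf, Cyr61, Tnc, Thbs1, Thbs2 and Sparc, out of 35976 genes in the deposited tables, and all 10 were found by symbol. Fstl1, Dpt, Postn and Nov were selected on the knockout fold changes of these same libraries, where they were higher in the knockout. Their knockout differences are therefore given as a description with no test. The other 6 were taken as relatives of the same kind and were tested.

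RNA sequencing compared Sun1 knockout with wildtype control CT26 cells, a colon cancer line of BALB/c mice. Sun1 encodes an inner nuclear membrane protein that links the nucleus to the cytoskeleton. The 24 libraries fell into 8 groups. Whole tumors, grown under the skin of BALB/c mice and collected at day 14, gave 7 libraries of the Sun1 knockout line and 8 libraries of control line 1. Tumor cells separated from such tumors by a commercial kit for mouse tumor cells gave 2 libraries of the knockout line, 2 of control line 2 and 2 of control line 1. Cells cultured in RPMI medium with serum gave 1 library each of the knockout line, control line 2 and control line 1. The labels name 1 knockout line and do not say whether it is 1 clone, so loss of Sun1 and other properties of that line cannot be told apart. Control line 2 has no whole tumors here. The labels do not say whether replicates came from separate animals, and p-values then reflect only how these samples vary, which may be technical.

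Matricellular proteins are secreted into the matrix but act mainly as signals rather than as structural fibers. They bind integrins, syndecans, growth factors and collagen, and many are made during wound repair and by fibroblasts in tumor stroma. Ctgf, Cyr61 and Nov are the CCN proteins CCN2, CCN1 and CCN3, of which Ctgf and Cyr61 are classical targets of the YAP and TEAD transcription factors. Thbs1 and Thbs2 are thrombospondins, which bind CD47 and CD36 and restrain vessel growth.

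Library totals were 14140769 to 24651279 expected counts in tumors, 17068356 to 22593612 in purified cells and 18832201 to 20716917 in culture. Levels are given as CPM (counts scaled to library size with TMM) to compare 1 gene across libraries, and as the authors' TPM, which is per transcript length, to compare genes. Sun1 averaged 57.5 CPM in knockout tumors and 179 CPM in control tumors, with no overlap. Summed leukocyte markers (7 genes) reached 778 to 1815 CPM in knockout tumors and 668 to 1536 CPM in control tumors, against 4.04 to 20.7 CPM in purified cells. Summed endothelial markers (7 genes) were 89.8 to 139 CPM in knockout tumors and 75.4 to 92.0 CPM in control tumors, and 6.90 to 14.5 CPM in purified cells. Summed fibroblast markers (12 genes) were 2321 to 3624 CPM in knockout tumors and 2474 to 3545 CPM in control tumors. The same fibroblast list reached 3581 to 6068 CPM in purified cells and 1456 to 1898 CPM in culture, where Fbln1 was at 0 in each library, so most of this list does not separate CT26 cells from host fibroblasts. In whole tumors, fewer cells of a type and less RNA per cell cannot be told apart.

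Per transcript length, Sparc was the most abundant of the 10 genes in every tumor and purified group, and Cyr61 was in culture. In knockout tumors Sparc averaged 228 TPM, followed by Cyr61 at 62.6 TPM and Thbs2 at 61.5 TPM, a pair whose ranges overlapped. Fstl1 followed Thbs2 in knockout tumors at 32.3 TPM (25.7 to 45.0). In control tumors Sparc averaged 239 TPM and Thbs2 130 TPM, and Fstl1 came after Cyr61, Thbs1 and Tnc at 10.8 TPM (7.19 to 13.1). Dpt, Ctgf, Postn and Nov were the 4 lowest in control tumors, from 7.70 TPM for Dpt to 2.21 TPM for Nov. In purified knockout cells Fstl1 again came next after Sparc, Thbs2 and Cyr61, at 25.9 TPM, and Postn was last at 0.05 TPM. In cultured knockout cells Cyr61 measured 395 TPM, Sparc 133 TPM, and Fstl1 5.76 TPM, while Postn was at 0.

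**Figure D1:**
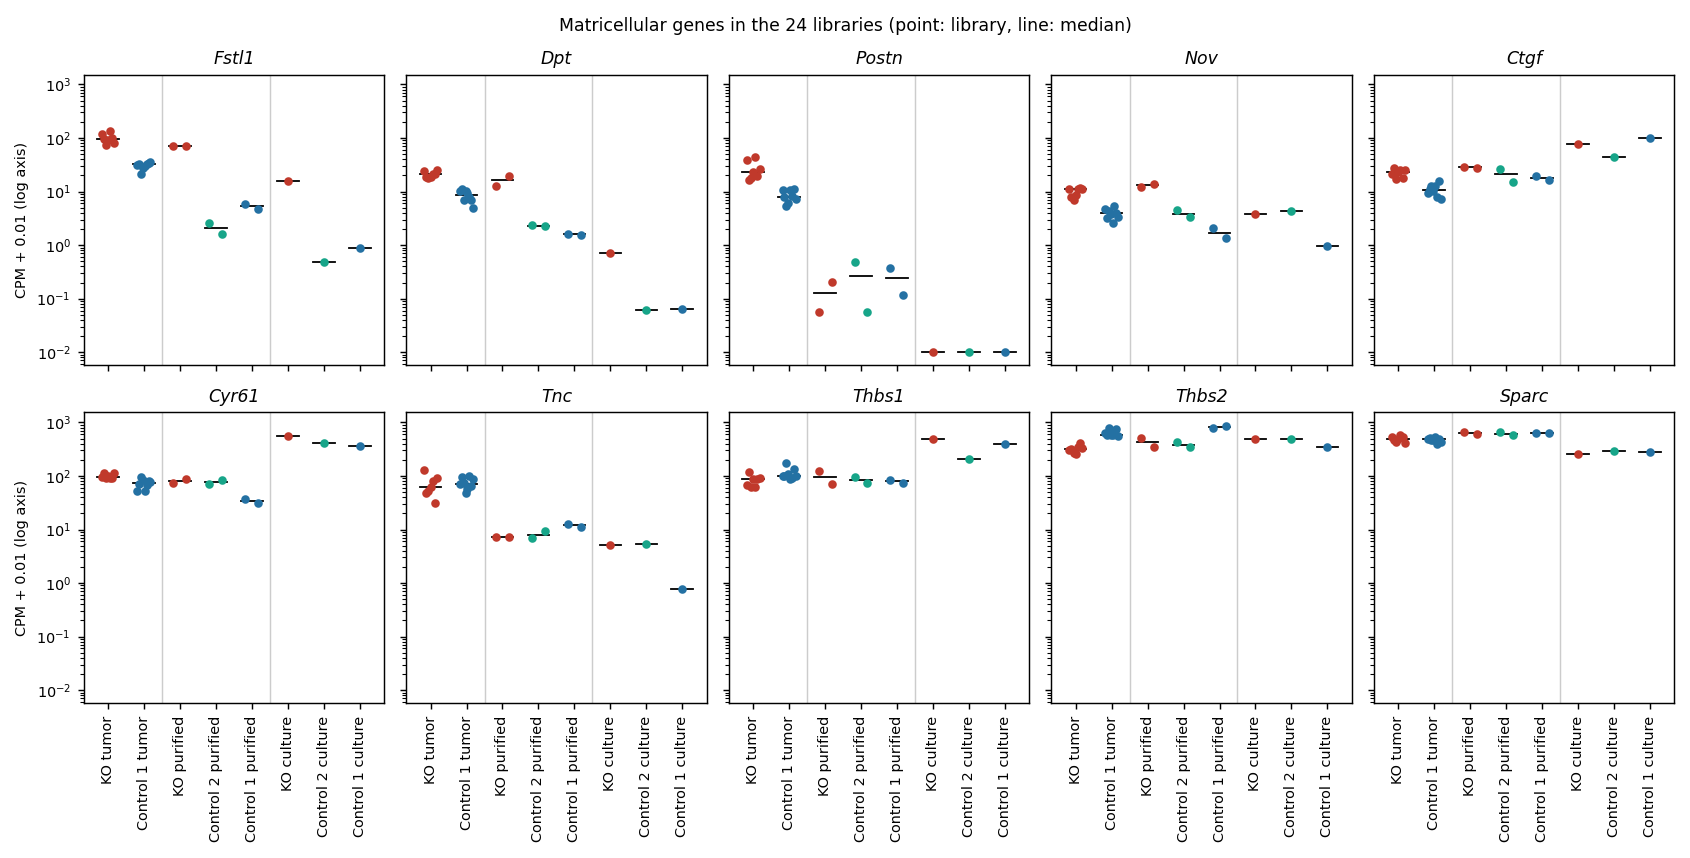
Levels of the 10 genes in each of the 24 libraries, in CPM plus 0.01 on a log axis, with points for libraries, black lines for group medians, red for the knockout, green for control line 2 and blue for control line 1. Fstl1, Dpt, Postn and Nov, picked for their rise, and Ctgf lie wholly higher in knockout tumors than in control tumors, and Thbs2 lies wholly lower. The share of all genes with no such overlap was not counted. Postn is close to the bottom outside whole tumors.

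Of the 6 tested relatives, 2 were higher and 1 was lower in knockout tumors than in control tumors at an edgeR adjusted p under 0.05. In that comparison 18.1% of 13752 genes were higher and 19% were lower, 37.1% in all. Ctgf and Cyr61 were the higher pair and Thbs2 the lower gene, while Tnc, Thbs1 and Sparc did not pass. The share of all genes with no overlap between knockout and control tumors was not counted. Where a lack of overlap is given below, it only describes that gene. In purified cells, with both control lines as 1 arm, 0 of the 6 passed, where 4.55% of 12476 genes did (2.26% higher and 2.29% lower). At an unadjusted p under 0.05 that fit gave 2718 genes, of the 6 relatives Ctgf alone, and DESeq2 called 1139 genes and 0 of the 6. In culture 0 of 12175 genes passed, or 0%, with 659 genes at an unadjusted p under 0.05, of the 6 relatives Cyr61 alone, and 49 genes but 0 of the 6 called by DESeq2. The spread in the culture fit comes from the pair of control lines alone (1 residual degree of freedom), and the single knockout library is taken to vary likewise.

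Fstl1 is a secreted glycoprotein of the follistatin and SPARC group that binds BMP ligands and is made mainly by mesenchymal cells. Its gene is on chromosome 16 from 37777055 to 37836516 (GRCm38). In tumors it measured 75.1, 94.2 and 138 CPM (lowest, median, highest) in the 7 knockout libraries, against 21.6, 32.4 and 35.1 CPM in the 8 control libraries. Each knockout tumor was thus above each control tumor, with knockout tumors 5 and 1 the highest at 138 and 120 CPM. The same tumors had the highest summed leukocyte markers of the knockout group, 1815 and 1569 CPM, and the highest summed fibroblast markers, 3624 and 2855 CPM. Knockout tumor 1 was also highest in summed endothelial markers, at 139 CPM. The median fibroblast sum was 2452 CPM in knockout tumors and 2940 CPM in control tumors, and the part of these cells in the Fstl1 values was not tested. In purified cells Fstl1 measured 69.9 and 70.8 CPM in the knockout line, against 2.53 and 1.57 CPM in control line 2 and 5.88 and 4.71 CPM in control line 1. Cultured cells had 15.6 CPM in the knockout line, against 0.465 CPM in control line 2 and 0.878 CPM in control line 1. The knockout was above both control lines in each setting in which they were measured. The log2 fold change was 1.70 ± 0.13 (SE) in tumors, 4.29 ± 0.41 in purified cells and 4.52 ± 0.50 in culture. In purified cells it was 5.12 ± 0.20 against control line 2 alone and 3.75 ± 0.14 against control line 1 alone. With host content as a covariate (the mean log2 CPM of the leukocyte gene Ptprc and the endothelial gene Pecam1), the tumor estimate was 0.96 ± 0.18.

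Fstl1 also differed between the control lines, whose libraries were part of the knockout fold changes used to choose the gene. Purified cells of control line 2 had less of it than those of control line 1, by -1.37 ± 0.35 on the log2 scale. With 1 library left out the estimate ran from -1.74 to -1.05. Tumors were above purified cells by 0.53 ± 0.21 on the log2 scale in the knockout line and by 2.59 ± 0.19 in control line 1. Values of these libraries entered the choice of Fstl1, Dpt, Postn and Nov. For these 4 genes the control lines, tumors against purified cells and purified cells against culture are therefore described with no test. The knockout difference in tumors minus that in purified cells, both over control line 1, was -2.05 ± 0.30 on the log2 scale, given without a test. Purified cells had 4.83-fold more Fstl1 than cultured cells with line as a term (log2 fold change 2.27 ± 0.18), again without a test.

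Dpt encodes dermatopontin, a small matrix protein that binds decorin and helps collagen fibrils form. The gene lies on chromosome 1 from 164796663 to 164824274. Knockout tumors had 17.8, 21.2 and 25.4 CPM (lowest, median, highest), against 4.90, 8.65 and 11.1 CPM in control tumors. The groups did not overlap, and the log2 fold change was 1.32 ± 0.14, or 0.98 ± 0.29 with the host term. Purified knockout cells had 12.7 and 19.6 CPM, against 2.32 and 2.26 CPM in control line 2 and 1.64 and 1.54 CPM in control line 1. Both knockout values were above all 4 control values, with a log2 fold change of 3.05 ± 0.26. In culture Dpt was close to the limit of counting, with 14 counts in the knockout library against 1 count in each control library. The ratio was 12.9, with a 95% interval of 2.97 to 117 that covers counting error only.

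Between the control lines Dpt gave a log2 fold change of 0.53 ± 0.41, without a test. In purified cells Dpt was 4.67 ± 0.34 higher than in culture on the log2 scale (25.5-fold), without a test. This estimate rests on few counts in culture, 14 in the knockout library and 1 in each control library. Tumors were above purified cells by 0.42 ± 0.17 in the knockout line and by 2.46 ± 0.32 in control line 1. The knockout difference in Dpt in tumors minus that in purified cells, over control line 1, was -2.03 ± 0.37, without a test.

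Postn encodes periostin, a fasciclin-domain protein that binds integrins and the matrix proteins tenascin-C and fibronectin, and that is typical of activated fibroblasts. In the genome it spans chromosome 3 from 54359267 to 54391041. Knockout tumors had 16.5, 23.4 and 44.8 CPM (lowest, median, highest), against 5.43, 8.06 and 11.4 CPM in control tumors. The groups did not overlap, knockout tumors 5 and 1 were again the highest at 44.8 and 39.0 CPM, and the log2 fold change was 1.68 ± 0.24. Outside whole tumors almost no Postn was counted. Purified cells had 0.0459 and 0.194 CPM in the knockout line, against 0.474 and 0.0462 CPM in control line 2 and 0.364 and 0.106 CPM in control line 1. The purified groups overlapped and rest on 5 counts in the knockout line and 18 in the control lines. The ratio was 0.512, with a 95% interval of 0.149 to 1.43 that covers counting error only. All 3 cultured libraries had 0 counts, which allows up to 0.145 CPM in the knockout line, 0.154 CPM in control line 2 and 0.159 CPM in control line 1.

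Postn was therefore the gene of the 10 with the widest range between settings. In the knockout line tumors were above purified cells by 7.78 ± 0.87 on the log2 scale, and the ratio from counts was 240 (95% interval 103 to 740, 3558 against 5 counts). In control line 1 the log2 fold change was 5.21 ± 0.48, and the ratio was 39.7 (20.1 to 92.3, 1311 against 8 counts). Both intervals cover counting error only, not the spread between libraries. Tumors were at least 191-fold above culture in the knockout line and at least 54.1-fold above it in control line 1, against a floor of 3 counts. The knockout difference in tumors minus that in purified cells, over control line 1, was 2.58 ± 1.60, without a test. Knockout tumor 6 had summed leukocyte markers of 778 CPM, below 7 of the 8 control tumors, and its Postn of 19.2 CPM was above that of every control tumor. By the host term, however, this tumor too was above every control tumor. The part of host cells in its Postn was not tested. With the host term as a covariate, the tumor difference in Postn was 0.59 ± 0.40 in place of 1.68. That term did not overlap between genotypes (6.40 to 6.84 in knockout tumors, 5.62 to 6.20 in control tumors), so host content and genotype cannot be told apart in these tumors. The promoter sequence of Postn is shown with that of Cyr61 because Postn was counted almost only in whole tumors, while Cyr61 was the most abundant of the 10 genes in culture. Both are the 250 bases before an annotated start in RefSeq on GRCm38.p6, written 5′ to 3′ on the strand of the gene, for Postn at chr3:54360857-54361106 (plus strand, the downstream of its pair of starts) and for Cyr61 at chr3:145649986-145650235 (minus strand). Capitals mark TATAAA in both and, in Cyr61, the TEAD core (GGAATG, here read as CATTCC on the other strand).
Postn: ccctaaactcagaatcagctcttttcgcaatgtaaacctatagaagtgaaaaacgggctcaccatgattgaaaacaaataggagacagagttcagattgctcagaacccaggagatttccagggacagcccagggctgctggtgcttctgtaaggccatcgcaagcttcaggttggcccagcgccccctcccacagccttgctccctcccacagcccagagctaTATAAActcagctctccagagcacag
Cyr61: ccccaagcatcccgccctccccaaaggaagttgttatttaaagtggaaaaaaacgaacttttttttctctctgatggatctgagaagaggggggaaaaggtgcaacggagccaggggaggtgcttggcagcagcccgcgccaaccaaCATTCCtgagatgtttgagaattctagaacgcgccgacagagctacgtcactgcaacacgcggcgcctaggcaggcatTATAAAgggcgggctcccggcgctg
The TATA box letters lie 21 to 26 bases before this start of Postn and 20 to 25 bases before that of Cyr61. The TEAD core lies 98 to 103 bases before the start of Cyr61. The window of the upstream Postn start, not shown, held no TATAAA. On either strand, 12.6% of 32851 promoter windows of this length hold the TEAD core letters and 12.4% hold TATAAA. The letters TGANTCA of the AP-1 site, held by 6.75% of windows, and the CArG box, held by 1.47%, were in neither sequence. Windows were found for 7 of the 10 genes, and not for Nov, Ctgf and Thbs1. Among these 9 windows only that of Cyr61 held the TEAD core, and such a match is a description of letters, not a binding site.

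Nov, now named Ccn3, is the CCN protein that often opposes the effects of Ctgf in culture models. Its gene is on chromosome 15 from 54745910 to 54753762. Knockout tumors had 6.99, 10.95 and 11.6 CPM (lowest, median, highest), against 2.53, 3.89 and 5.35 CPM in control tumors. The groups did not overlap and the log2 fold change was 1.33 ± 0.15. Purified knockout cells had 12.3 and 13.6 CPM, against 4.42 and 3.28 CPM in control line 2 and 2.06 and 1.32 CPM in control line 1. The knockout was above both lines, with a log2 fold change of 2.23 ± 0.39 (1.77 ± 0.23 against control line 2 alone and 2.96 ± 0.26 against control line 1 alone). In culture the order was different. The knockout library had 3.80 CPM, against 4.39 CPM in control line 2 and 0.932 CPM in control line 1, so the knockout lay between the control lines.

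Nov differed between the control lines by 1.19 ± 0.39 in purified cells, higher in control line 2, and by 0.90 to 1.55 with 1 library left out. These values are given without a test. Tumors minus purified cells gave -0.38 ± 0.19 in the knockout line and 1.25 ± 0.31 in control line 1. The knockout difference in Nov in tumors minus that in purified cells, over control line 1, was -1.62 ± 0.35, without a test. Purified cells against culture gave 0.78 ± 0.34, also without a test. With 1 library left out the estimate ran from 0.19 to 1.48, the highest without the control line 2 culture.

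Ctgf, now named Ccn2, promotes matrix production and works with TGF-beta. The gene lies on chromosome 10 from 24595442 to 24598683. Knockout tumors had 17.04, 23.1 and 27.4 CPM (lowest, median, highest), against 7.30, 10.7 and 15.7 CPM in control tumors. Each knockout tumor was above each control tumor. This was a log2 fold change of 1.05 ± 0.14, or 2.08-fold (edgeR adjusted p = 2.52e-05). The authors' deposited table gives -1.14 for control over knockout on the log2 scale, with an adjusted p of 7.89e-14. With the host term as a covariate the estimate was 0.90 ± 0.31 and no longer passed (edgeR adjusted p = 0.179).

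In purified cells Ctgf measured 28.9 and 27.5 CPM in the knockout line, against 26.8 and 14.9 CPM in control line 2 and 19.5 and 16.6 CPM in control line 1. The knockout values were the highest, but the first library of control line 2 lay just under them. The log2 fold change over both lines was 0.55 ± 0.22 and did not pass (edgeR adjusted p = 0.193). Without control line 2 replicate 1 it was 0.75 (edgeR adjusted p = 0.0377), against control line 2 alone it was 0.45 ± 0.23 (edgeR adjusted p = 0.211), and against control line 1 alone it was 0.66 ± 0.13 (edgeR adjusted p = 0.00404). Between the control lines Ctgf gave 0.21 ± 0.25 (edgeR adjusted p = 0.615), and 0.59 (edgeR adjusted p = 0.0287) without control line 2 replicate 2. In culture Ctgf measured 77.1 CPM in the knockout line, against 44.5 CPM in control line 2 and 101 CPM in control line 1, so the knockout lay between them. Purified cells had 3.24-fold less Ctgf than cultured cells (log2 fold change -1.70 ± 0.28, edgeR adjusted p = 0.00240). Control tumors had less of it than purified cells of control line 1, by -0.69 ± 0.21 (edgeR adjusted p = 0.0123), a call lost without purified control line 1 replicate 1 (edgeR adjusted p = 0.139). For the knockout line that comparison gave -0.30 ± 0.15 (edgeR adjusted p = 0.102).

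Cyr61, now named Ccn1, supports adhesion and vessel growth through integrins. In the genome it spans chromosome 3 from 145646971 to 145649985, and its promoter letters are shown above. Knockout tumors had 90.3, 95.1 and 114 CPM (lowest, median, highest), against 52.0, 74.5 and 94.4 CPM in control tumors. The groups overlapped, since control tumor 3 at 94.4 CPM was above knockout tumors 3, 5 and 6. The log2 fold change was 0.46 ± 0.11, or 1.38-fold (edgeR adjusted p = 0.00311), and 0.60 ± 0.22 with the host term, where it did not pass (edgeR adjusted p = 0.234). Purified cells had 75.4 and 88.6 CPM in the knockout line, against 70.7 and 84.0 CPM in control line 2 and 37.1 and 31.7 CPM in control line 1. The knockout and control line 2 overlapped, and control line 1 stood apart below them.

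The purified comparison of Cyr61 thus depended on the control line. Against both lines the log2 fold change was 0.56 ± 0.40 (edgeR adjusted p = 0.475). Against control line 1 alone it was 1.27 ± 0.12 (edgeR adjusted p = 2.42e-05), and against control line 2 alone it was 0.09 ± 0.13 (edgeR adjusted p = 0.658). Control line 2 itself was 2.26-fold above control line 1 (log2 fold change 1.18 ± 0.14, edgeR adjusted p = 0.000725). In the comparison of lines 12.4% of 12135 genes passed. Of the 6 relatives 1 was higher and 1 was lower in control line 2, against 5.08% and 7.35% of all genes. All control tumors came from control line 1, so for Cyr61 the knockout and a difference between cell lines cannot be told apart in tumors. In culture Cyr61 measured 549 CPM in the knockout line, against 419 CPM in control line 2 and 365 CPM in control line 1, the highest in the knockout but not past the threshold (log2 fold change 0.48 ± 0.17, edgeR adjusted p = 0.902).

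Cyr61 fell 7.27-fold in purified cells against culture (log2 fold change -2.86 ± 0.15, edgeR adjusted p = 8.86e-07). It was higher in tumors than in purified cells by 0.30 ± 0.11 in the knockout line (edgeR adjusted p = 0.0247) and by 1.12 ± 0.20 in control line 1 (edgeR adjusted p = 0.000526). The knockout call was lost without purified knockout replicate 1 (edgeR adjusted p = 0.328). The knockout difference over control line 1 in tumors minus that in purified cells was -0.80 ± 0.23 (edgeR adjusted p = 0.0340), smaller in tumors. It was the only 1 of the 6 relatives that passed this test of the difference itself, where 10.1% of 15033 genes did (4.82% higher and 5.27% lower). Leaving out any 1 of the 4 purified libraries raised the edgeR adjusted p to between 0.0573 and 0.197, and it was 0.0656 without the filter on low counts.

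**Figure D2:**
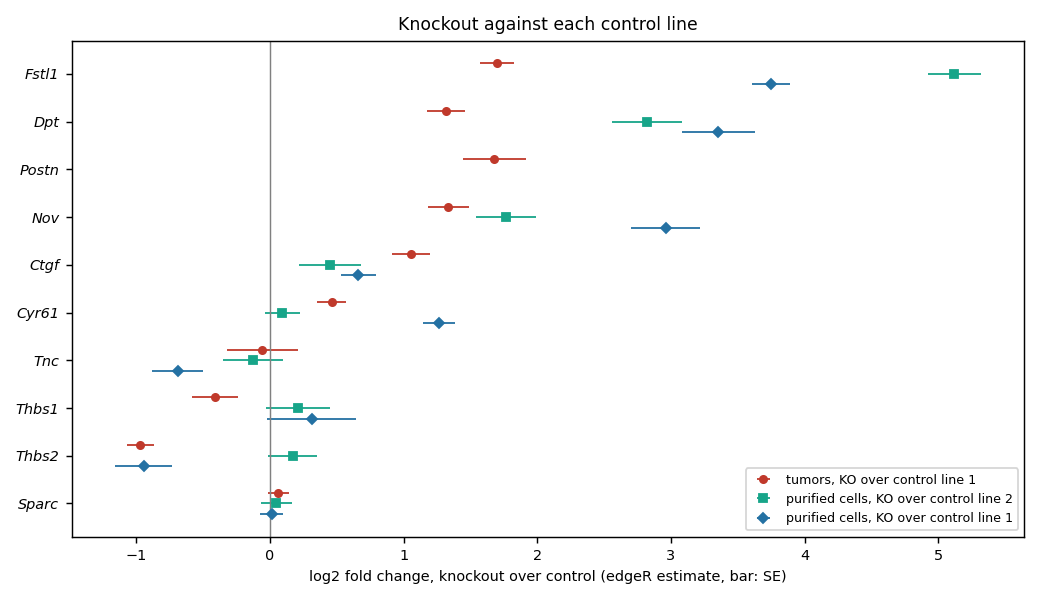
Log2 fold change of the knockout over control for each gene, with bars for SE, in tumors over control line 1 (red circles), in purified cells over control line 2 (green squares) and in purified cells over control line 1 (blue diamonds). Fstl1, Dpt and Nov lie right of 0 against both lines, while Cyr61 and Thbs2 are near 0 against control line 2, and Postn has no purified value because it did not pass the filter on low counts.

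Thbs2 encodes thrombospondin-2, which limits vessel growth and is needed for normal collagen fibrils in mouse skin. Its gene is on chromosome 17 from 14665500 to 14694262. Knockout tumors had 259, 326 and 419 CPM (lowest, median, highest), against 567, 592 and 796 CPM in control tumors. Each knockout tumor was below each control tumor. Fitted over all tumor libraries the difference was -0.97 ± 0.10 on the log2 scale, or 1.96-fold lower (edgeR adjusted p = 6.64e-07). With the host term it was -0.74 ± 0.20 and no longer passed (edgeR adjusted p = 0.0699). Purified cells had 515 and 344 CPM in the knockout line, against 423 and 347 CPM in control line 2 and 801 and 869 CPM in control line 1. As with Cyr61, the knockout overlapped control line 2, and control line 1 stood apart, here above the others.

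Against both lines Thbs2 changed by -0.50 ± 0.42 in purified cells (edgeR adjusted p = 0.543). Against control line 1 alone it was -0.95 ± 0.21 (edgeR adjusted p = 0.0409), and against control line 2 alone it was 0.17 ± 0.18 (edgeR adjusted p = 0.564), in the opposite direction. Control line 2 was 2.16-fold below control line 1 (log2 fold change -1.11 ± 0.13, edgeR adjusted p = 0.000596). The tumor difference in Thbs2 and the difference between control lines were of similar size, and tumors of control line 2 were not analysed here. In culture control line 1 was instead the lowest, with 480 CPM in the knockout line, 491 CPM in control line 2 and 350 CPM in control line 1.

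Thbs2 was lower in tumors than in purified cells of control line 1 by -0.35 ± 0.12 (edgeR adjusted p = 0.0171), a call lost without purified control line 1 replicate 1 (edgeR adjusted p = 0.0531) or replicate 2 (0.154). For the knockout line the estimate was -0.38 ± 0.18 (edgeR adjusted p = 0.0819), and it passed without knockout tumor 6 (edgeR adjusted p = 0.0361) or without purified knockout replicate 2 (0.0152). The knockout difference over control line 1 in tumors minus that in purified cells was -0.02 ± 0.23 (edgeR adjusted p = 0.996). Purified cells against culture gave 0.20 ± 0.32 (edgeR adjusted p = 0.644).

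Thbs1 encodes thrombospondin-1, which activates latent TGF-beta and blocks vessel growth. The gene lies on chromosome 2 from 118111876 to 118127133. Knockout tumors had 61.9, 89.0 and 121 CPM (lowest, median, highest), against 86.9, 99.7 and 177 CPM in control tumors, and the groups overlapped. The log2 fold change was -0.41 ± 0.17 (edgeR adjusted p = 0.0713), and it passed only without knockout tumor 2, at -0.52 (edgeR adjusted p = 0.0205), among fits that left out 1 library. With the host term it was 0.12. Purified cells had 122 and 72.2 CPM in the knockout line, against 94.9 and 74.5 CPM in control line 2 and 84.7 and 73.1 CPM in control line 1. The groups overlapped, with an estimate of 0.25 ± 0.20 on the log2 scale (edgeR adjusted p = 0.508), and control line 2 minus control line 1 gave 0.11 ± 0.14 (edgeR adjusted p = 0.656).

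Culture held the highest levels of Thbs1, with 495 CPM in the knockout line, against 204 CPM in control line 2 and 401 CPM in control line 1. The knockout was above both, without passing (log2 fold change 0.70 ± 0.45, edgeR adjusted p = 0.964). Purified cells had 4.02-fold less than culture (log2 fold change -2.01 ± 0.25, edgeR adjusted p = 0.000781). Tumors and purified cells differed by -0.19 ± 0.28 in the knockout line (edgeR adjusted p = 0.591) and by 0.54 ± 0.24 in control line 1 (edgeR adjusted p = 0.0728). In control line 1 it passed without control tumor 3 (edgeR adjusted p = 0.0128) or without control tumor 5 (0.0453).

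Across the change from culture to cells purified from tumors, the genes of the set moved in both directions. Of the 6 relatives, 1 was higher in purified cells (Sparc) and 3 were lower (Ctgf, Cyr61 and Thbs1). Of all 12287 genes, 22.6% were higher and 21.7% lower, 44.3% in all. Each setting was prepared in its own way (grown in medium, separated from tumors with a kit, or taken as whole tumors), and the labels name no batch, so setting and preparation cannot be told apart here, nor in tumors against purified cells. The 3 lower genes were the pair of CCN genes that are known YAP targets and Thbs1. Nov, described with no test, gave 0.78 ± 0.34 on the log2 scale.

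Tnc encodes tenascin-C, a large matrix glycoprotein made at wound edges and in tumor stroma, whose fibronectin-type repeats are included or skipped by splicing. In the genome it spans chromosome 4 from 63959785 to 64047015. Knockout tumors had 31.8, 62.4 and 129 CPM (lowest, median, highest), against 48.3, 71.9 and 98.7 CPM in control tumors. The groups overlapped widely, with knockout tumor 1 the highest and knockout tumor 6 the lowest of all 15. In the fit Tnc gave -0.06 ± 0.26 on the log2 scale (edgeR adjusted p = 0.884). Purified cells had 7.34 and 7.31 CPM in the knockout line, against 6.90 and 9.19 CPM in control line 2 and 12.9 and 10.96 CPM in control line 1. The change over both lines was -0.44 ± 0.25 (edgeR adjusted p = 0.350), over control line 2 alone it was -0.13 ± 0.22 (edgeR adjusted p = 0.725), and over control line 1 alone it was -0.69 ± 0.19 (edgeR adjusted p = 0.0198). Between the control lines Tnc gave -0.56 ± 0.21 (edgeR adjusted p = 0.111), and -0.77 (edgeR adjusted p = 0.0435) without control line 2 replicate 2.

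After Postn, Tnc had the largest estimate for tumors over purified cells in both lines, in control line 1 close to that of Fstl1. Tumors were 9.92-fold above purified cells in the knockout line (log2 fold change 3.31 ± 0.62, edgeR adjusted p = 0.00246) and 6.43-fold above them in control line 1 (2.68 ± 0.31, edgeR adjusted p = 3.08e-05). In culture Tnc measured 5.08 CPM in the knockout line, against 5.37 CPM in control line 2 and 0.768 CPM in control line 1, where it rests on 14 counts. Purified cells against culture gave 1.29 ± 0.55 (edgeR adjusted p = 0.0975), and 0.56 (edgeR adjusted p = 0.0419) without the control line 1 culture; it also passed without the filter on low counts, at 1.28 (edgeR adjusted p = 1.64e-09).

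The mean transcript length that RSEM estimated for Tnc was also shorter in tumors. RSEM gives each gene a mean transcript length weighted by the abundance of its forms, and this length varied between libraries for 4 of the 10 genes. For Tnc it was 5978, 6247 and 6337 bases (lowest, median, highest) in knockout tumors and 6274, 6506 and 6615 bases in control tumors. Purified cells had 7008 and 7023 bases in the knockout line, 6930 and 7132 bases in control line 2 and 6989 and 7013 bases in control line 1. Each tumor was thus below each purified library, whereas knockout and control tumors overlapped. The purified lengths rest on 131 to 213 Tnc counts per library, and the tumor lengths on at least 514. In culture the length was 6714 bases in the knockout line, from 103 counts, against 7119 bases in control line 2 and 7100 bases in control line 1. Protein-coding Tnc transcripts in GENCODE have 6833, 7106, 7100 and 2928 bases, and the transcript set behind the deposited lengths is not given in the sources used here.

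**Figure D3:**
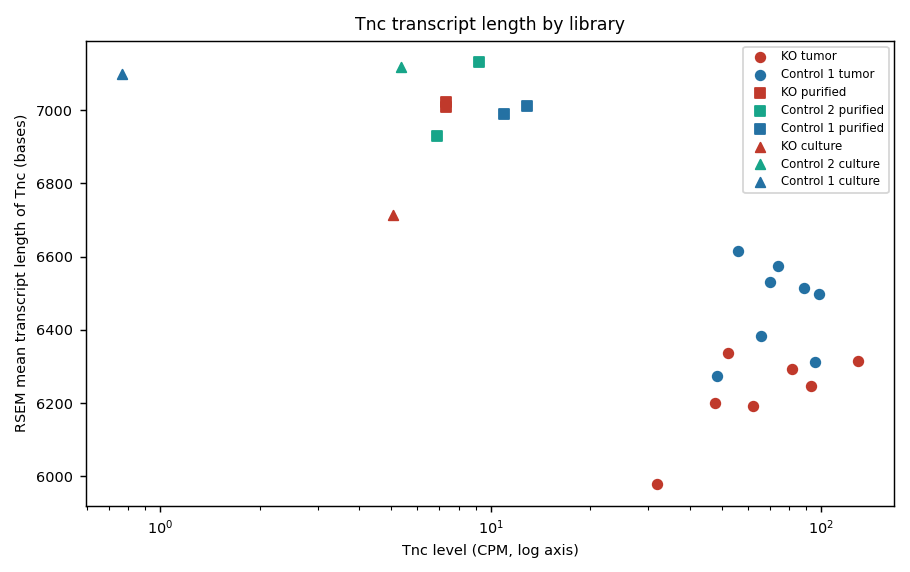
Mean transcript length of Tnc as RSEM estimated it, in bases, against its level in CPM on a log axis, with 1 point per library (circles for tumors, squares for purified cells, triangles for culture). Tumor libraries lie at 5978 to 6615 bases and purified libraries at 6930 to 7132 bases.

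Sparc encodes osteonectin, a collagen-binding protein that controls matrix assembly. Its gene is on chromosome 11 from 55394159 to 55420080. Knockout tumors had 417, 482 and 581 CPM (lowest, median, highest), against 391, 483 and 541 CPM in control tumors. The groups overlapped almost entirely, with an estimate of 0.06 ± 0.08 on the log2 scale (edgeR adjusted p = 0.561). Purified cells had 654 and 612 CPM in the knockout line, against 653 and 579 CPM in control line 2 and 624 and 642 CPM in control line 1. The change was 0.03 ± 0.11 over both lines (edgeR adjusted p = 0.912) and -0.03 ± 0.11 between the control lines (edgeR adjusted p = 0.873). Culture had 253 CPM in the knockout line, against 288 CPM in control line 2 and 275 CPM in control line 1, and purified cells were 2.33-fold above culture (log2 fold change 1.22 ± 0.08, edgeR adjusted p = 4.39e-07). Tumors were below purified cells by -0.33 ± 0.11 in the knockout line (edgeR adjusted p = 0.0203) and by -0.37 ± 0.10 in control line 1 (edgeR adjusted p = 0.00545). These calls were lost without either purified knockout library (edgeR adjusted p = 0.139 and 0.0509) and without purified control line 1 replicate 2 (0.0550).

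Of the 6 relatives, 2 were higher in tumors than in purified cells of the knockout line (Cyr61 and Tnc) and 1 was lower (Sparc), where 31.1% and 25.3% of 14569 genes were, 56.4% in all. In control line 1, 2 were higher in tumors (Cyr61 and Tnc) and 3 were lower (Ctgf, Thbs2 and Sparc), where 30.2% and 23.7% of 14331 genes were, 53.9% in all. The leukocyte sums given above were at least 668 CPM in tumors and at most 20.7 CPM in purified cells, and the part of host cells in these values was not tested. The test of the knockout difference in tumors minus that in purified cells, which Cyr61 passed, gave 0.40 ± 0.29 for Ctgf (edgeR adjusted p = 0.421) and 0.64 ± 0.62 for Tnc (edgeR adjusted p = 0.567). It gave -0.72 ± 0.39 for Thbs1 (edgeR adjusted p = 0.264) and 0.06 ± 0.16 for Sparc (edgeR adjusted p = 0.885).

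**Figure D4:**
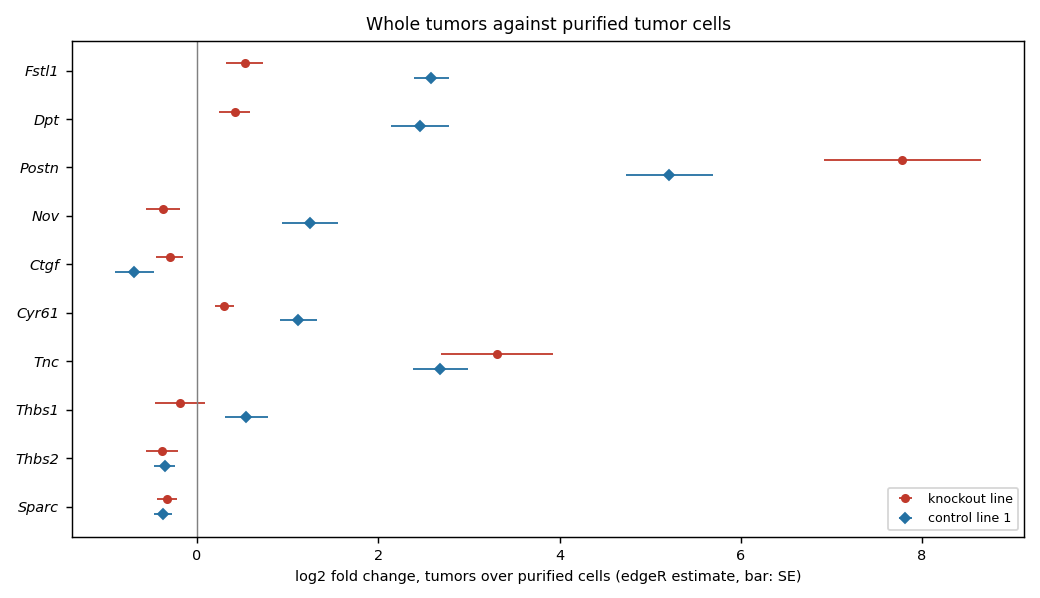
Log2 fold change of tumors over purified cells for each gene, with bars for SE, in the knockout line (red circles) and in control line 1 (blue diamonds). Postn and Tnc lie far right of 0 in both lines, and Fstl1, Dpt and Nov, whose choice used these values, lie at -0.38 to 0.53 in the knockout line and at 1.25 to 2.59 in control line 1.

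Other genes of the same families were counted from lists that were written with earlier results of these data known. The counts in tumors stand beside 18.1% of all genes higher and 19% lower, 37.1% in all. Of the CCN genes Wisp1, Wisp2 and Wisp3, the first pair was tested in tumors and both were higher in the knockout, Wisp1 by 0.53 ± 0.15 (edgeR adjusted p = 0.00897) and Wisp2 by 1.11 ± 0.36 (edgeR adjusted p = 0.0207). Of 2 further thrombospondins tested, Thbs4 was higher by 2.03 ± 0.64 (edgeR adjusted p = 0.0217) and Thbs3 gave -0.06 ± 0.12 (edgeR adjusted p = 0.756). Summed skeletal muscle markers, from tissue in which Thbs4 is also made, were 2.42 to 99.2 CPM in knockout tumors and 1.15 to 12.1 CPM in control tumors. In purified cells they were 3.07 to 31.2 CPM in the knockout line, 1.39 to 1.84 CPM in control line 2 and 1.15 to 1.54 CPM in control line 1. In culture they were 5.03, 1.03 and 0.658 CPM, in the same order. The part of muscle tissue or of the knockout cells in the Thbs4 value was not tested. Of 3 further tenascins tested, Tnr was lower by -4.01 ± 0.35 (edgeR adjusted p = 5.33e-08) and Tnxb by -0.51 ± 0.17 (edgeR adjusted p = 0.0312), while Tnn gave -0.69 ± 0.43 (edgeR adjusted p = 0.216). Tnr was also lower in purified cells of control line 2 than of control line 1, by -2.98 ± 0.80 (edgeR adjusted p = 0.0351). Tgfbi, the closest relative of Postn, was higher in knockout tumors by 0.63 ± 0.20 (edgeR adjusted p = 0.0258).

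Of 10 genes with SPARC or follistatin domains, 3 were tested in tumors, with 1 higher and 1 lower in the knockout, against 37.1% of all genes called. Sparcl1 was higher by 0.48 ± 0.17 (edgeR adjusted p = 0.0405), and Fst, the activin inhibitor follistatin, was lower by -0.77 ± 0.10 (edgeR adjusted p = 2.60e-05), whereas Fstl3 gave -0.21 ± 0.10 (edgeR adjusted p = 0.108). Among other matricellular genes, Ecm1 was lower by -0.53 ± 0.10 (edgeR adjusted p = 0.000511) and Lgals3 by -0.37 ± 0.09 (edgeR adjusted p = 0.00464), while Spp1 gave 0.06 ± 0.11 (edgeR adjusted p = 0.675). Ecm1 was also lower in purified knockout cells, by -1.11 ± 0.17 (edgeR adjusted p = 0.00891).

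Of 15 receptors for these proteins, 2 were higher and 3 were lower in knockout tumors, with a median log2 fold change of -0.11, against 0.01 for all genes tested. This count is near the 37.1% of all genes called. The 4 with the smallest p were Dip2a, reported to bind Fstl1, at -0.37 ± 0.07 (edgeR adjusted p = 0.000254), the collagen receptor Ddr2 at -0.29 ± 0.05 (edgeR adjusted p = 0.000421), Sdc4 at -0.28 ± 0.07 (edgeR adjusted p = 0.00504) and the thrombospondin receptor Cd36 at 0.49 ± 0.13 (edgeR adjusted p = 0.00538). In purified cells 0 of 11 receptors tested passed in edgeR, with 2 at an unadjusted p under 0.05, where 4.55% of all genes passed. Of 8 matrix partners, 1 was higher and 2 were lower in knockout tumors, with a median of -0.13, again near the 37.1% of all genes. Lox, which cross-links collagen, was higher by 1.33 ± 0.25 (edgeR adjusted p = 0.000896), fibronectin (Fn1) was lower by -0.93 ± 0.17 (edgeR adjusted p = 0.000744) and decorin (Dcn) by -1.02 ± 0.12 (edgeR adjusted p = 1.18e-05), and Col5a1 gave -0.17 ± 0.08 (edgeR adjusted p = 0.0849). Of 12 fibroblast markers, 4 were higher and 1 was lower, with a median of 0.10, near the same 37.1%. Fap was higher by 1.54 ± 0.26 (edgeR adjusted p = 0.000166), Mfap5 by 0.89 ± 0.15 (edgeR adjusted p = 0.000171) and Thy1 by 0.62 ± 0.11 (edgeR adjusted p = 0.000367), and Dcn was the lower one. In purified cells 0 of 11 fibroblast markers and 0 of 7 matrix partners passed in edgeR, with 1 and 0 at an unadjusted p under 0.05, where 4.55% of all genes passed.

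The genes whose pattern over the 24 libraries was most like that of Fstl1 and Postn were found among 10511 genes whose mean level was 5 CPM or more. Likeness was the root mean square difference of log2 CPM, each gene centred on its own mean. For Fstl1 the closest were Dpt (0.88), Eomes (0.89), Arhgap15 (0.96), Mmp2 (1.10) and Ifi44l (1.12), against a standard deviation of 2.24 for Fstl1 itself. For Postn they were Lox (0.37), Gpr65 (0.46), Slamf9 (0.47), Cxcr6 (0.48) and Clec4a2 (0.48), against a standard deviation of 3.11. The Postn neighbors lie closer to it than the Fstl1 neighbors do to Fstl1, on the same scale. The libraries of a group share setting, line and host content, so this is a description.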

How the data were processed

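Per the submitters' processing notes, FastQC, STAR, RSEM and DESeq2 were used with the mm10 genome; versions and the counting settings are not given in the sources used here. Per the file headers, the authors deposited for each library an RSEM expected count, a TPM value and a mean transcript length per gene. The authors' deposited DESeq2 tables give a log2 fold change and an adjusted p-value; Sun1 is positive in them, so they read control over knockout.

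Expected counts were rounded and fitted with edgeR 4.0.16 in R 4.3.3 (TMM, filterByExpr with minimum count 10 and minimum total 15, robust quasi-likelihood F test, two-sided, Benjamini-Hochberg over all genes tested, threshold 0.05). Each comparison used its own libraries. CPM came from TMM scaling over the 24 libraries, with a prior count of 2 for log2 values. Postn did not pass the filter in fits without tumors; all other genes of the set passed in each fit. Depth was 14140769 to 24651279 counts per library. Ratios of low counts have exact 95% intervals on summed counts, which cover counting error only, and floors are 3 counts over a group. Promoter sequences are RefSeq GRCm38.p6.

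The 10 genes and all lists were chosen with earlier results of these data known. The rule names all 10, up to 4 genes of smallest tumor p of each family, receptor, partner and fibroblast list and the 5 genes most like Fstl1 and Postn. No 2 libraries of a group agreed within counting noise (lowest chi-square per gene 7.38). Replicate numbers did not pair samples: of 7 tumor pairs, correlations of deviations were -0.11 to 0.22 and 2 were over 0.1. Alternatives were DESeq2 1.42.0 and its size factors, no filter, each control line alone, a host-content term, a replicate block and leaving out each library. The steps were tested on simulated data. A result of the wider lists is not reported here.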

Additional observations from a re-analysis of the deposited data

Results flagged for a closer look

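Cyr61 was marked for a second look because its knockout difference over control line 1 was not of the same size in tumors and in purified cells, by a test of the interaction itself. The estimate in tumors minus that in purified cells was -0.80 ± 0.23 (SE; edgeR adjusted p = 0.0340), smaller in tumors. Leaving out any 1 of the 4 purified libraries ended the call, and purified Cyr61 levels of control line 2, 70.7 and 84.0 CPM, were at the level of the knockout. No library stood apart from its group for any of the 10 genes among the 20 groups of 4 to 10 tumors that were examined.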

How the results depend on the processing

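For the knockout in purified cells, 568 genes were called, against 1139 with DESeq2, 908 without a filter, 303 with a replicate block, 2896 against control line 1 alone, 2322 against control line 2 alone and 72 to 540 with 1 library left out. The replicate numbers pair nothing in the labels. With the replicate block, tumors against purified cells gave 3.49 for Tnc in the knockout line (edgeR adjusted p = 0.124) and -0.29 for Sparc (0.0556) and 0.39 for Thbs1 (0.0164) in control line 1. In culture 0 genes were called, against 49 with DESeq2 and 95 without a filter. Between control lines 1508 were called, against 2267 without a filter and 999 to 2319 with 1 library left out. For the interaction 1517 were called, against 546 to 1705 with 1 library left out. In tumors 5107 were called, and 196 (39 higher, 157 lower) with the host term, which does not overlap between genotypes. Some estimates changed sign. In purified cells Thbs2 was 0.17 against control line 2 alone. With the host term in tumors, Thbs1 was 0.12 and Sparc -0.10. With 1 library left out, Tnc in tumors ran from -0.27 to 0.068, Thbs1 and Sparc in purified cells from -0.18 to 0.59 and from -0.025 to 0.085, and Ctgf, Thbs1 and Sparc between control lines from -0.27 to 0.59, from -0.075 to 0.28 and from -0.12 to 0.060. Thbs1 in knockout tumors against purified cells ran from -0.53 to 0.22, Thbs2 and Sparc in the interaction from -0.30 to 0.29 and from -0.0070 to 0.093, and Thbs2 in purified cells against culture from -0.25 to 0.51. For tumors against purified cells, DESeq2 also called Thbs1 in control line 1 (DESeq2 adjusted p = 0.0160) and Thbs2 in the knockout line (0.0450). Of all recomputed values of the 10 genes, 930 kept direction and side of the threshold (for untested values, stayed within the spread), 28 lost a call, 28 gained one, 24 changed sign and 23 untested values moved by more than the spread. The calls counted here include those of Fstl1, Dpt, Postn and Nov in comparisons that are described above with no test. The causes were not tested. With 2 purified libraries per line and 1 per line in culture, low counts of Postn and Dpt limit what can be seen there.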
